A study of Arabidopsis thaliana with 6 samples.

Results

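The 9 genes described here are *AG* (AT4G18960), *PI* (AT5G20240), *SEP1* (AT5G15800), *SEP2* (AT3G02310), *SEP3* (AT1G24260), *SEP4* (AT2G03710), *AGL6* (AT2G45650), *AGL15* (AT5G13790) and *AGL18* (AT3G57390), a group of MADS-box genes known from flowers and embryos and measured here in mature leaves. They were taken by locus identifier, and all 9 were found among the 32243 genes listed in each library. The data are RNA-seq libraries from leaves of 3 individual plants of *flpl1* and of 3 individual Col-0 plants. *flpl1* (line C30-81-as6) is a late-flowering, petioleless mutant obtained by carbon ion irradiation of Col-0, with an additional copy of Chr. 2 and a translocation between Chr. 1 and Chr. 2. Its plants were picked by phenotype and by DNA content in flow cytometry, so the group stands for 1 mutant line and not for Chr. 2 dosage alone. Col-0 is the wild type and received no treatment that the labels name. All plants had the same age, but *flpl1* flowers later, so the genotype and the developmental stage cannot be told apart. The tissue was whole leaf, and in such bulk samples fewer cells with a transcript and less of it per cell cannot be told apart.

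MADS-box genes encode transcription factors that bind DNA as dimers and act in larger complexes. In the flower, C-class (*AG*), B-class (*PI*) and E-class (*SEP*) proteins combine to specify the organs, and ectopic expression of such genes in leaves is known to curl them. In vegetative tissue these loci are textbook targets of the Polycomb group, whose PRC2 complex deposits trimethylation on lysine 27 of histone H3 and keeps them silent. *CLF* and *SWN* encode the PRC2 methyltransferases of the sporophyte, and loss of *CLF* is known to release *AG* and *SEP3* in leaves. No histone mark was measured in these libraries.

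The 9 genes share the MADS box, the DNA-binding domain near the start of the protein, and this is the stretch where reads of one gene could most easily be placed on another. The first 45 of its 180 bases are shown for each gene in order to show how far the members can be told apart, read 5′ to 3′ from the RefSeq coding sequences on TAIR10.1, with capitals for bases identical in all 9 genes.
AG: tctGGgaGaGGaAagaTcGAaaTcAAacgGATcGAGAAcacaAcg
PI: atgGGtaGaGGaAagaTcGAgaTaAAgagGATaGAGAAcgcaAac
SEP1: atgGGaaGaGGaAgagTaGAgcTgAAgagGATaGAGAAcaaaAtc
SEP2: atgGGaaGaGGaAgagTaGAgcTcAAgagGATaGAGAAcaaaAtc
SEP3: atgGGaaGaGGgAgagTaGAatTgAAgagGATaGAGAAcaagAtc
SEP4: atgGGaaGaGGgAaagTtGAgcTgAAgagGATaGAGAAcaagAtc
AGL6: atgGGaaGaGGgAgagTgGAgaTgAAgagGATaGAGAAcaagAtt
AGL15: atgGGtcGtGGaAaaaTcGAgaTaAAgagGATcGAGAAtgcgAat
AGL18: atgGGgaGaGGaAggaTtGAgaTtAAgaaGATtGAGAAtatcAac
Of the 180 bases, 72 were identical in all 9 genes, 21 of them within the 45 bases shown, and the box of the other members was between 70.0% and 89.4% identical to that of *SEP1*. Among the 36 pairs of coding sequences, the longest exact run shared by a pair had a median of 15 bp. The longest of all was the 32 bp that *SEP1* and *SEP2* have in common, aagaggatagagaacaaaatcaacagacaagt, which lies inside the box and is far shorter than the reads. None of the 9 genes had a near-identical copy elsewhere, defined as at least 100 bp at 95% identity or more. Only *SEP1* overlapped another gene in the deposited positions, by 100 bp with AT5G15790 on the opposite strand, and the strand setting of the counting is not given in the sources used here.

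The 250 bases before the RefSeq start of each gene were searched on both strands for motifs that are known from Polycomb recruitment or from MADS proteins. These were the telobox (AAACCCTA), the GAGA repeat (GAGAGAGA) and the CArG box, the MADS binding site. The 3 windows that held a match are shown, each read 5′ to 3′ on the strand of its gene from the TAIR10.1 genome, with capitals for the motif. They are *PI* on chr5:6828654-6828903 (plus strand), *SEP4* on chr2:1128979-1129228 (plus strand) and *AGL15* on chr5:4450959-4451208 (minus strand).
PI: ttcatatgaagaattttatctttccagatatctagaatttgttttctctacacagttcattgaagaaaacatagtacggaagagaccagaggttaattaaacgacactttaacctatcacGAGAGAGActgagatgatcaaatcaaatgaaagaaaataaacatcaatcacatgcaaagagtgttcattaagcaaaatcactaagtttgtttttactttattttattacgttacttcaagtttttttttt
SEP4: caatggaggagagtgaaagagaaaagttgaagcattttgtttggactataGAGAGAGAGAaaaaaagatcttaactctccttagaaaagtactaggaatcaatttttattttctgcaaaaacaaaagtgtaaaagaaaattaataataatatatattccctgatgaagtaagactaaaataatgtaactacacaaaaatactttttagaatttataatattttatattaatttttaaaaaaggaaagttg
AGL15: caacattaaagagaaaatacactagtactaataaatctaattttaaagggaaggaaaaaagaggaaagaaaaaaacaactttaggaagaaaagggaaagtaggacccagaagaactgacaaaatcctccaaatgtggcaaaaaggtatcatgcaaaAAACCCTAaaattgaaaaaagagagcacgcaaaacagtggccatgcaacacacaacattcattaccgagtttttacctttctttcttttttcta
The *AGL15* window, before the gene that was counted only in *flpl1*, held the telobox between 94 and 87 bases upstream of the start. The GAGA repeat was found in *PI*, 130 to 123 bases upstream, and in *SEP4*, as overlapping matches from 200 to 191 bases upstream. The CArG box was in none of the 9 windows. Of 27443 such windows over the genome, 4.49% held the telobox, 4.91% the GAGA repeat and 2.52% the CArG box, so that 1, 2 and 0 of 9 windows are described here and nothing about binding is drawn from them.

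The libraries held between 19465078 and 24633070 counts on genes, and replicates of a group differed by more than sampling noise, with chi-square per degree of freedom from 18.9 to 116, the highest being that between Col-0 replicates 1 and 2. A gene was called a DEG (differentially expressed gene) when edgeR's quasi-likelihood test gave an adjusted p (Benjamini-Hochberg) under 0.05 and the fitted change was at least 2-fold. Of the 18638 genes tested, 34.2% were DEGs, 19.8% higher and 14.4% lower in *flpl1*, so a DEG is common in this comparison. Without the 2-fold limit, 30.9% had an adjusted p under 0.05 and were higher, and 30.7% were lower. The median log2 fold change was 0.55 for the 2848 tested genes on Chr. 2 and -0.10 for the 15709 on the other nuclear chromosomes. Leaf identity was clear in each library. The 8 leaf markers, genes of photosynthesis, summed to 46899 to 49893 FPKM in *flpl1* and 18746 to 37121 FPKM in Col-0. FPKM stands for reads per kilobase of exon, scaled to the total count of the library. Of 4 shoot meristem markers, *CLV3* and *WUS* had no count in any library, and *STM* had 1, in Col-0 replicate 1. *KNAT1* was counted 6 times in *flpl1* replicate 2 and was at 0 in the other *flpl1* libraries. Its Col-0 counts were 5, 2 and 4. Of the 8 leaf markers, all tested, 2 were higher DEGs in *flpl1* and none was lower, with a median log2 fold change of 0.70. *CA1*, a chloroplast carbonic anhydrase, rose by 3.23 on the log2 scale (SE 0.79, adjusted p = 0.00899), and *RBCS1A*, a Rubisco small subunit, had a mean of 13964 FPKM in *flpl1* and 3815 FPKM in Col-0 (adjusted p = 0.00229). The group difference in this leaf list is given as a measured fact, and its part in the results below was not tested.

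The 9 genes were not uniformly silent in these leaves. *SEP4* and *AGL18* were expressed in both groups, *AG* was low in both and higher in *flpl1*, *AGL15* was counted only in *flpl1*, *PI*, *SEP1* and *SEP3* had 0 to 5 counts in each *flpl1* library and 15 to 164 in each Col-0 library, and *SEP2* and *AGL6* had no count in *flpl1* and 0 to 8 in Col-0. Of the 9, 7 passed the filter on low counts. *PI*, *SEP1*, *SEP3* and *AGL15* passed it through 1 group only, and such a gene had to differ, so the counts of calls that follow are a description. There were 5 DEGs, *AG* and *AGL15* higher and *PI*, *SEP1* and *SEP3* lower in *flpl1*, while *SEP4* passed the adjusted p alone, *AGL18* was not called, and *SEP2* and *AGL6* were not tested. The groups of libraries did not overlap for 7 of the 9 genes, 2 with *flpl1* above and 5 with Col-0 above. Of the 7 tested genes, 6 did not overlap. Over all tested genes, the groups did not overlap for 68.3%, with *flpl1* above for 29.9% and Col-0 above for 38.4%. Among the 1821 tested genes with 200 counts or fewer over the 6 libraries, 54.9% were DEGs. For the 7 tested members the log2 fold change had a median of -0.55, beside 0.00 over all tested genes.

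**Figure D1:**
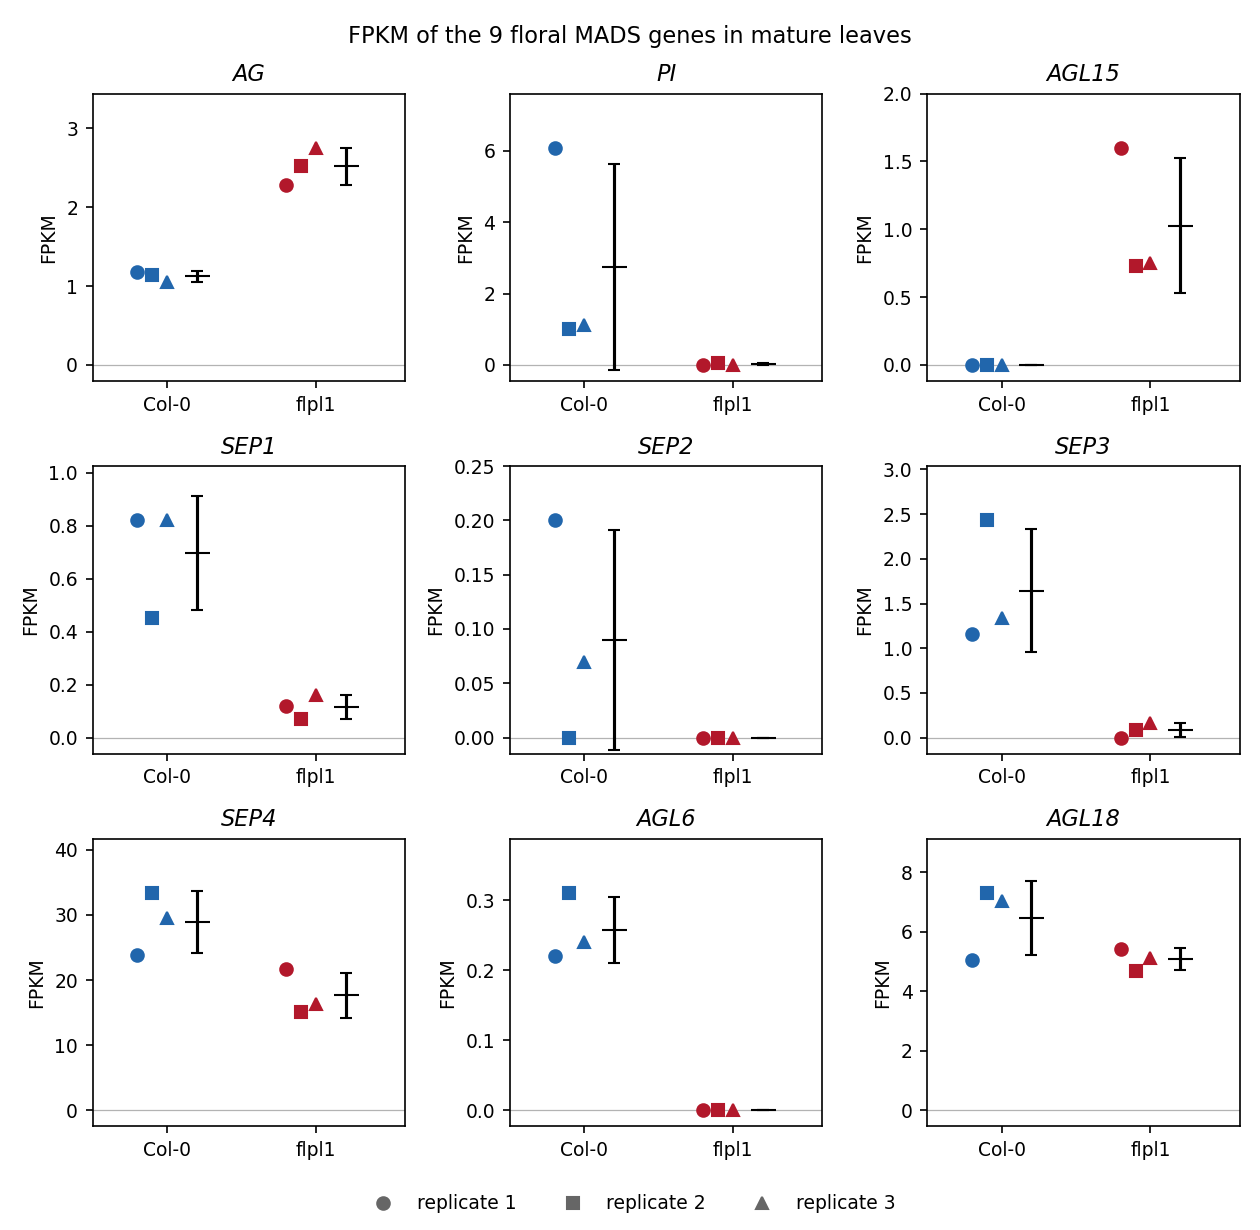
FPKM of each of the 9 genes by library, with Col-0 in blue and *flpl1* in red, a symbol for each replicate and a black bar for the group mean ± SD (n = 3); the linear y axes differ between genes. *AG* and *AGL15* were higher in the 3 *flpl1* libraries, *PI*, *SEP1*, *SEP3*, *SEP4* and *AGL6* were higher in the 3 Col-0 libraries, and *SEP2* and *AGL18* overlapped.

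*AG*, the C-class gene of stamens, carpels and floral determinacy, lies on the plus strand of Chr. 4 (10382856 to 10388539, TAIR10) with up to 10 exons. Its FPKM was 2.28, 2.52 and 2.75 in *flpl1* libraries against 1.18, 1.14 and 1.05 in Col-0, from 89, 82 and 99 counts against 47, 43 and 33. The 3 *flpl1* libraries lay above the 3 Col-0 libraries, and the spread within each group was small. The means were 2.52 ± 0.235 and 1.12 ± 0.0666 FPKM (SD, n = 3 each), and the exact permutation test gave the smallest two-sided p that 3 against 3 libraries allow, 0.1. In edgeR the log2 fold change was 1.30 (SE 0.23, adjusted p = 0.00228), a 2.47-fold higher level in *flpl1*. *AG* was thus measured in wild type leaves too, at a level of about 1 FPKM.

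The gene that follows *AG*, AT4G18970, is on the opposite strand and ends 182 bp past the end of *AG*. It had 1507, 1316 and 1228 counts in *flpl1*, compared with 36, 8 and 18 in Col-0, a far larger difference than that of *AG* and in the same direction. AT4G18950, on the other side of *AG* at 4465 bp, had 668, 638 and 733 counts in *flpl1* libraries against 646, 532 and 450 in Col-0. Whether reads running past the end of AT4G18970 were counted on *AG* was not tested, since the files hold counts per gene and not per position.

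*PI*, the B-class gene of petals and stamens, lies on the plus strand of Chr. 5 (6829042 to 6831515) with 6 exons. It had 0, 1 and 0 counts in *flpl1*, compared with 164, 26 and 24 in Col-0, which is 0, 0.05 and 0 FPKM against 6.08, 1.02 and 1.13. The groups did not overlap, but Col-0 replicate 1 alone held 76.6% of the Col-0 counts, and the other 2 Col-0 libraries averaged 1.08 FPKM. The Col-0 mean was 2.74 ± 2.89 FPKM (SD, n = 3), a spread between libraries as large as the mean. The ratio of Col-0 to *flpl1* in summed counts per library total was 211, with an exact 95% interval of 37.4 to 8363 that covers counting error only. The edgeR log2 fold change was -7.13 (SE 1.37, adjusted p = 0.00316) and -5.64 without Col-0 replicate 1. Both values rest on 1 count in *flpl1*, so their size is uncertain. Without *flpl1* replicate 2, which holds that count, the log2 fold change was -9.12. That value depends on the prior count that edgeR adds and is no measure of the size. *AP3*, the B-class partner of *PI*, had 3, 8 and 1 counts in *flpl1* libraries against 3, 2 and 0 in Col-0, so the partner did not follow the pattern of *PI* at this depth.

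The genes on either side of *PI* were highest in the same Col-0 library. *BCB*, 1412 bp away, had 867, 115 and 61 counts in Col-0 and 165, 125 and 74 in *flpl1*, and *DIN10*, a dark-inducible gene 2143 bp away, had 2344, 667 and 533 in Col-0 and 669, 1104 and 265 in *flpl1*. The 2 neighbours did not separate the groups, whereas *PI* did. The part of Col-0 replicate 1 in the level of *PI* is given by the values without it above.

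**Figure D2:**
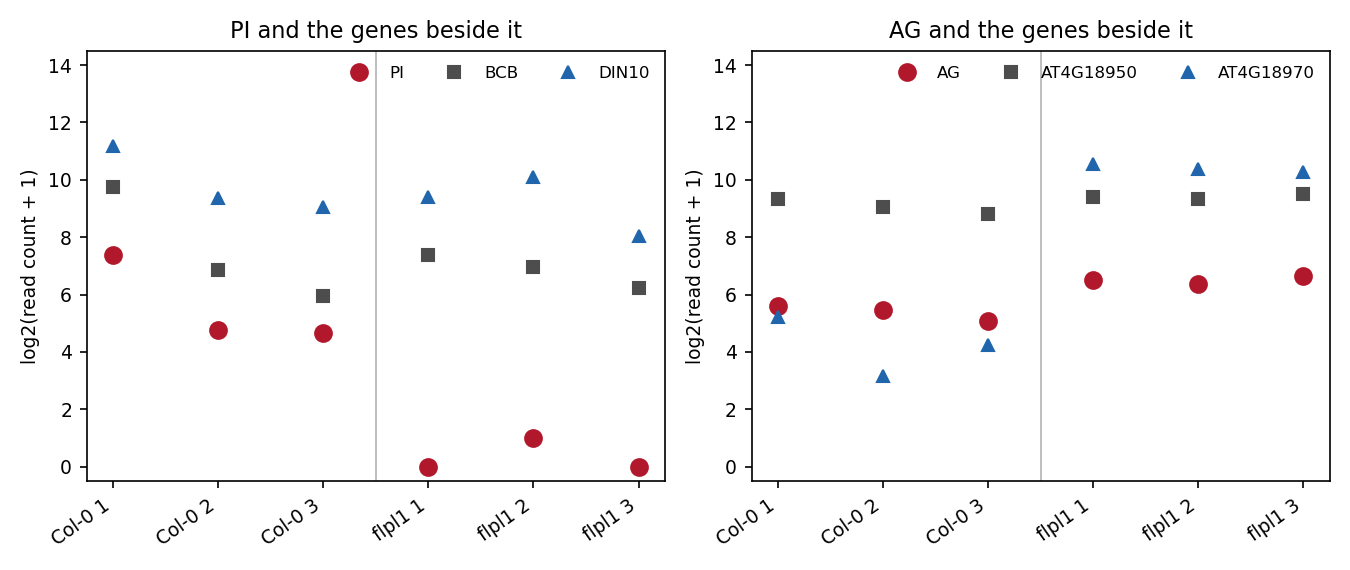
Log2 of the read count plus 1 in each library for *PI* (left) and *AG* (right), red circles, with the 2 genes beside each as grey squares and blue triangles; Col-0 libraries stand left of the grey line and *flpl1* libraries right of it. *PI* and both of its neighbours were highest in Col-0 replicate 1, and AT4G18970 was higher in *flpl1*, as was *AG*. AT4G18950 had 638 to 733 counts in *flpl1* and 450 to 646 in Col-0. The counts are not scaled to the library totals.

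The *SEP* genes encode the E-class proteins that join the organ identity factors into complexes, and they are known to overlap in function. *SEP3*, on the minus strand of Chr. 1 (8593637 to 8596105), had 0, 2 and 4 counts in *flpl1*, compared with 33, 65 and 30 in Col-0. In FPKM this was 0, 0.09 and 0.16 against 1.16, 2.43 and 1.34, with means of 0.0833 ± 0.0802 and 1.64 ± 0.687 (SD, n = 3 each). All Col-0 libraries were above all *flpl1* libraries, and Col-0 replicate 2 was the highest. The edgeR log2 fold change was -4.14 (SE 0.71, adjusted p = 0.00188), a 17.6-fold lower fitted level in *flpl1*. Leaving out 1 library moved it between -5.02 (without *flpl1* replicate 3) and -3.53 (without *flpl1* replicate 1).

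*SEP1*, on the minus strand of Chr. 5 (5151334 to 5154154), had 4, 2 and 5 counts in *flpl1* libraries against 29, 15 and 23 in Col-0. Its FPKM was 0.12, 0.07 and 0.16 against 0.82, 0.45 and 0.82, so both groups were below 1 FPKM and did not overlap. The edgeR log2 fold change was -2.43 (SE 0.51, adjusted p = 0.00485), 5.40-fold lower in *flpl1*, and lay between -2.72 and -2.21 when 1 library was left out. The gene that overlaps its end, AT5G15790, had 214, 174 and 224 counts in *flpl1*, compared with 160, 204 and 159 in Col-0, groups that overlap.

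*SEP2*, on the minus strand of Chr. 3 (464279 to 467074), was near the floor throughout, with no count in *flpl1* libraries against 7, 0 and 2 in Col-0. The groups overlapped, because Col-0 replicate 2 was also at 0, and the exact permutation test on FPKM gave p = 0.4 (n = 3 each, two-sided). Of the 9 Col-0 counts, 77.8% were in replicate 1, and no fold is given for this gene. A difference in *SEP2* was not detectable at this depth.

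*SEP4*, known also from the determinacy of the floral meristem, is the member with the most reads, and it lies on the plus strand of Chr. 2 (1129268 to 1131838), the chromosome present in an extra copy in *flpl1*. Its FPKM was 21.63, 15.07 and 16.31 in *flpl1*, compared with 23.86, 33.38 and 29.58 in Col-0, from 738, 428 and 513 counts against 833, 1100 and 816. The highest *flpl1* library was just below the lowest Col-0 library, so the groups did not overlap, although by a narrow margin. The means were 17.7 ± 3.49 and 28.9 ± 4.79 FPKM (SD, n = 3 each; two-sided exact permutation test, p = 0.1).

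The edgeR log2 fold change of *SEP4* was -0.55 (SE 0.16, adjusted p = 0.0197), 1.47-fold lower in *flpl1*, which passed the adjusted p and not the 2-fold limit. The adjusted p rose to 0.0765 without *flpl1* replicate 2 and to 0.0663 without *flpl1* replicate 3. It rose to 0.0593 and 0.0514 without Col-0 replicates 2 and 3. The log2 fold change in these fits was -0.46, -0.47, -0.50 and -0.55, in the same order. Each fit had 1 library fewer and a larger SE (0.18 to 0.19), so the adjusted p alone does not show that the change rests on that library. Against the median of the Chr. 2 genes, the log2 fold change of *SEP4* was -1.10. Of the tested Chr. 2 genes, 13.8% were lower in *flpl1* at an adjusted p under 0.05, 7.69% were lower DEGs, and 18.1% had all Col-0 libraries above all *flpl1* libraries.

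*AGL6*, a close relative of the *SEP* genes with roles in floral and lateral organ development, is also on Chr. 2 (18804350 to 18806522, plus strand). It had no count in any *flpl1* library and 6, 8 and 5 counts in Col-0, a mean of 0.257 ± 0.0473 FPKM (SD, n = 3). The Col-0 libraries were close to each other, and the level was at least 6.24-fold higher in Col-0 when *flpl1* was set at 3 counts over the group. *AGL6* did not pass the filter on low counts. In the fit without that filter its adjusted p was 0.0107 in edgeR and that of *SEP2* was 0.115.

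The gene beside *AGL6*, *AGL20* (*SOC1*), lies 1015 bp away and is a MADS-box promoter of flowering. It had 1377, 1184 and 1256 counts in *flpl1* libraries against 6174, 6182 and 4576 in Col-0, and its log2 fold change was -1.97 (SE 0.13, adjusted p = 7.75e-05 in edgeR). For both genes of this pair, the 3 *flpl1* libraries lay below the 3 Col-0 libraries.

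*AGL15* and *AGL18* encode related MADS proteins that are expressed in embryos and act together as repressors of flowering. *AGL15*, on the minus strand of Chr. 5 (4449014 to 4450843), had 37, 14 and 16 counts in *flpl1* and none in the 3 Col-0 libraries. Its FPKM in *flpl1* was 1.6, 0.73 and 0.75, a mean of 1.03 ± 0.497 (SD, n = 3), with replicate 1 the highest and 55.2% of the counts. With Col-0 set at 3 counts over the group, the level was at least 22.7-fold higher in *flpl1*. The fitted log2 fold change of 7.55 (SE 1.06, adjusted p = 0.00208 in edgeR) depends on the prior count and is no measure of the size.

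The genes beside *AGL15* did not share its pattern. AT5G13780, 367 bp away, had 928, 636 and 760 counts in *flpl1*, compared with 623, 738 and 509 in Col-0, and *PPH*, the pheophytinase of chlorophyll breakdown at 993 bp, had 1339, 1407 and 1514 against 5094, 9212 and 6994. *PPH* thus lay higher in all Col-0 libraries, opposite to *AGL15*. Of 5 seed markers, *CRA1*, *CRU3*, *SESA3* and *OLEO1* were at 0 in every library and *SESA1* had 1 count, in *flpl1* replicate 2, so that the summed level of the list was 0 to 0.07 FPKM in *flpl1* and 0 FPKM in Col-0.

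*AGL18*, on the plus strand of Chr. 3 (21233701 to 21235911), was expressed in leaves of both groups, unlike its partner. Its FPKM was 5.43, 4.7 and 5.11 in *flpl1* libraries against 5.04, 7.31 and 7.05 in Col-0, groups that overlap because Col-0 replicate 1 lay between the *flpl1* libraries. The means were 5.08 ± 0.366 and 6.47 ± 1.24 FPKM (SD, n = 3 each; two-sided exact permutation test, p = 0.3). The edgeR log2 fold change was -0.19 (SE 0.16, adjusted p = 0.319) and lay between -0.30 and -0.13 when 1 library was left out, so no change in *AGL18* was called.

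**Figure D3:**
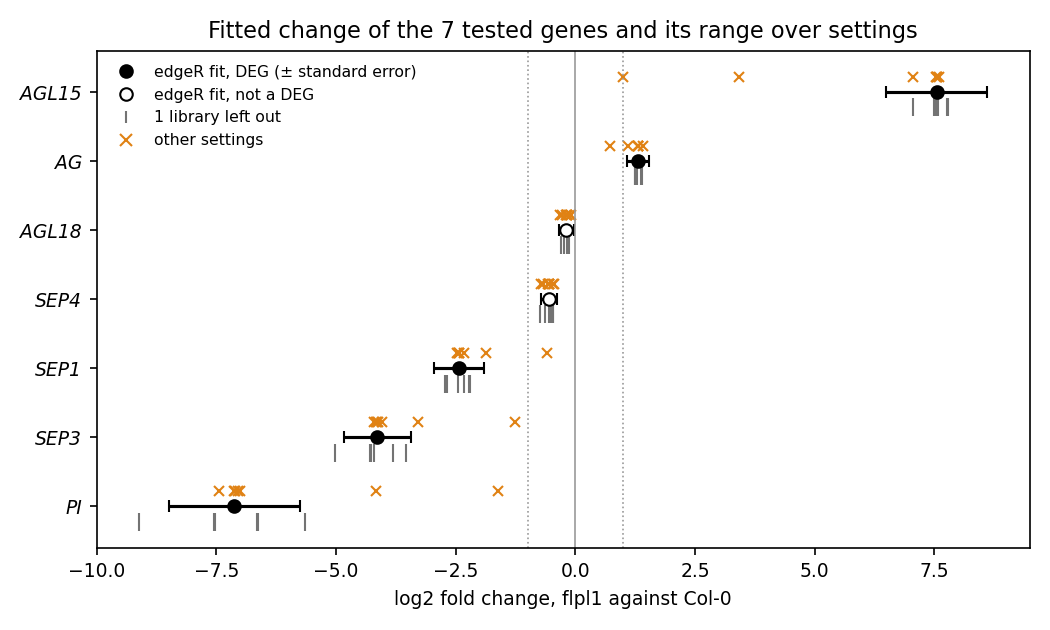
Fitted log2 fold change (*flpl1* against Col-0) of the 7 tested genes, with filled circles for DEGs, open circles for genes that were no DEGs and bars for ± 1 standard error. Grey ticks show the 6 fits with 1 library left out and orange crosses the other settings; dotted lines mark a 2-fold change, and every tick and cross lies on the same side of 0 as its circle.

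Since FPKM is per length, levels can be compared between genes within a group. In *flpl1* the order of mean FPKM was *SEP4*, *AGL18*, *AG* and *AGL15*, each with libraries that did not overlap those of the next, followed by *SEP1*, *SEP3*, *PI*, *SEP2* and *AGL6*, neighbours that overlapped. In Col-0 *SEP4* was again apart at the top. *AGL18*, *PI*, *SEP3* and *AG* followed, each overlapping the next, then *SEP1* and *AGL6*, each apart from its neighbours, then *SEP2* and *AGL15*, which overlapped. *SEP4* made up 64.6% to 69.6% of the summed FPKM of the 9 genes in the *flpl1* libraries and 61.9% to 72.5% in Col-0. A mean of at least 1 FPKM was reached by 4 of the 9 genes in *flpl1* and by 5 in Col-0.

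For the 7 members with at least 10 counts in each library of the higher group, the tested genes with the most similar profile over the 6 libraries were found by the Euclidean distance of log2 CPM (counts scaled to the library total) after removal of each gene's mean. The nearest to *AG* were AT2G04650 at 0.145 and *ATML1*, an epidermal homeobox gene, at 0.146. *SEP3* was nearest to *GSTF3* at 0.511 and *sks11* at 0.530, and *SEP1* to *NCED3*, an enzyme of abscisic acid synthesis, at 0.396 and *ATAF1* at 0.481. The 2 nearest to *PI* lay much farther, *TPS03* at 1.03 and *BHLH101* at 1.08. *SEP4* (AT1G47820 and AT3G01360, both at 0.145) and *AGL18* (*TRM12* at 0.0792 and AT4G22285 at 0.0898) had closer matches, and *AGL15* had AT3G01710 at 0.474 and AT3G18130 at 0.510. All of these distances rest on 6 libraries, and genes with few counts are noisier.

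Of 30 other MIKC-type MADS genes, the class to which the 9 belong, 26 had a count in some library, 12 were tested, 2 were higher and 2 lower DEGs, and the median log2 fold change was -0.60. *AGL19*, a promoter of flowering known as a Polycomb target, rose by 2.70 on the log2 scale (SE 0.27, adjusted p = 0.000224 in edgeR) with 744, 656 and 871 counts in *flpl1*, compared with 186, 93 and 111 in Col-0. *AGL24*, another promoter, rose by 1.80 (SE 0.23), with 389, 304 and 279 counts against 125, 83 and 101. *FUL*, a gene of fruit development and flowering, fell by 1.16 (SE 0.28, adjusted p = 0.00822), from 340, 542 and 419 counts in Col-0 to 204, 95 and 228. Without *flpl1* replicate 2 it fell by 0.91, which is below the 2-fold limit. *AGL20* is given above.

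The other floral organ genes of this class were almost silent. *AP1*, the A-class gene, had no count in any library, and *SHP1*, a carpel gene close to *AG*, had 0, 1 and 1 counts in *flpl1* libraries against 5, 4 and 7 in Col-0. *ANR1*, a root gene on Chr. 2 picked after its values were seen, had no count in *flpl1*, compared with 9, 41 and 35 in Col-0, at least 27.9-fold higher in Col-0 with *flpl1* set at 3 counts over the group. *SVP*, a repressor of flowering, had 4493 to 6028 counts in *flpl1* and 5592 to 6462 in Col-0 and no call.

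Among 15 Polycomb repressor genes, 12 were tested, 1 was a higher and 1 a lower DEG, and the median log2 fold change was -0.22. *CLF*, on Chr. 2, had 544, 422 and 481 counts in *flpl1* libraries against 100, 90 and 71 in Col-0, or 7.33 ± 0.262 against 1.30 ± 0.0700 FPKM (SD, n = 3 each), and its log2 fold change was 2.64 (SE 0.14, adjusted p = 6.58e-05 in edgeR). Its paralog *SWN* had 841, 719 and 877 counts against 1466, 1866 and 1677, a log2 fold change of -0.88 (SE 0.13, adjusted p = 0.000894) that stayed inside the 2-fold limit. *RING1B*, a subunit of the other Polycomb complex, PRC1, had a log2 fold change of -1.996 (SE 0.23), with 61, 48 and 67 counts against 261, 222 and 291. *FIE*, *EMF2*, *VRN2* and *MSI1*, further PRC2 subunits, had no call.

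Of 8 genes that oppose Polycomb repression, 7 were tested, 2 were higher DEGs and none was lower, with a median log2 fold change of 0.13. *ULT1*, a trithorax factor known to activate *AG*, rose by 4.10 on the log2 scale (SE 0.48, adjusted p = 0.000394 in edgeR), from 9, 4 and 5 counts in Col-0 to 68, 123 and 83 in *flpl1*. *ATX1*, a histone H3 methyltransferase on Chr. 2 also known to act on *AG*, rose by 1.74 (SE 0.19), with 305, 241 and 208 counts against 87, 86 and 80. The demethylase genes *REF6* and *ELF6* and the remodellers *BRM* and *SYD* had no call. *JMJ13*, also on this list, passed the adjusted p and not the 2-fold limit (log2 fold change 0.94, SE 0.35, adjusted p = 0.0467 in edgeR). Its mean level was 2.25 FPKM in *flpl1* against 1.27 FPKM in Col-0, and the groups did not overlap.

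**Figure D4:**
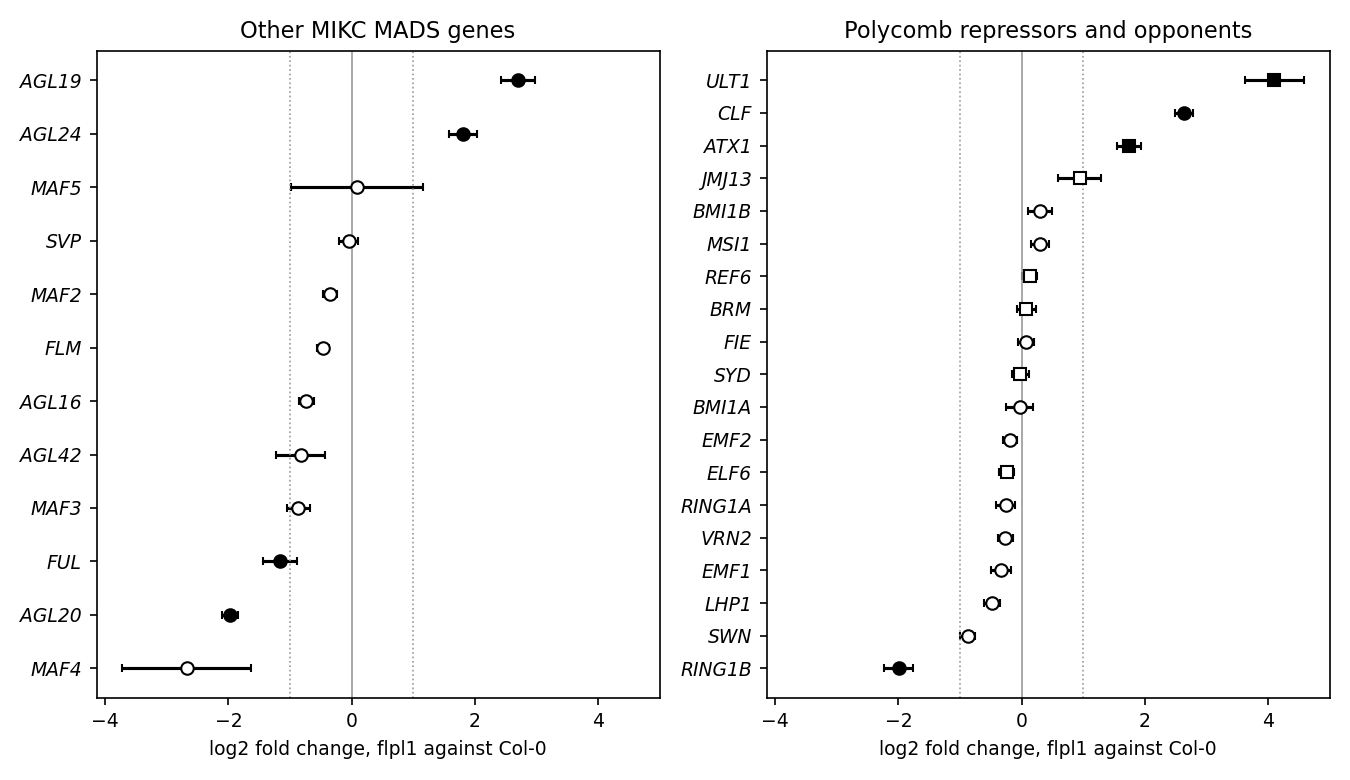
Log2 fold change ± SE (*flpl1* against Col-0, edgeR) of the 12 tested other MIKC MADS genes (left) and of the tested Polycomb repressors, circles, and opponents, squares (right); filled symbols are DEGs and dotted lines mark a 2-fold change. *AGL19*, *AGL24*, *CLF*, *ULT1* and *ATX1* were higher and *AGL20*, *FUL* and *RING1B* lower in *flpl1*.

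Of 12 other loci known as Polycomb targets in leaves, 10 had mean levels under 0.3 FPKM in both groups and 2 were tested, *FUS3* and *DOG1*, with no call. *ABI3* and *LEC1* were at 0 in every library, and *STM*, a meristem gene, had a single count. *FUS3* had 67, 62 and 103 counts in *flpl1*, compared with 89, 114 and 84 in Col-0. The 10 loci that were not tested had at most 13 counts in any library.

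Of 12 floral regulators that act on the 9 genes, 7 were tested, 1 was a higher and 2 were lower DEGs, and the median log2 fold change was -0.60. At an adjusted p under 0.05, 5 of these 7 were lower and 1 was higher, beside 30.7% and 30.9% of all tested genes. *AP2*, *LUG* and *SEU*, also on this list, were lower in *flpl1* and passed the adjusted p, not the 2-fold limit. Their log2 fold changes were -0.60, -0.38 and -0.80 (adjusted p = 0.02, 0.0179 and 0.000686 in edgeR). For each, the 3 Col-0 libraries lay above the 3 *flpl1* libraries. *LFY*, *UFO*, *WUS* and *SUP*, which control the organ identity genes in floral meristems, had no count in any library. *ANT*, an AP2-type factor of organ growth, rose by 3.72 on the log2 scale (SE 0.26, adjusted p = 8.94e-05 in edgeR), with 188, 242 and 216 counts in *flpl1* libraries against 19, 23 and 14 in Col-0. *BEL1*, an ovule gene, fell by 1.64 (SE 0.17), with 941, 589 and 867 counts against 2299, 3438 and 2589.

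*FT*, the florigen made in leaves, fell by 5.53 (SE 0.57, adjusted p = 0.00024), from 172, 462 and 518 counts in Col-0 to 6, 10 and 6 in *flpl1*. The 5 floral targets of *AG* and *SEP* proteins were not tested for lack of counts, and *SPL/NZZ*, *CRC* and *KNU* were at 0 in every library.

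Markers of flower tissue were read beside these values, since *PI*, *SEP1* and *SEP3* are high in flowers. Of 10 anther and pollen markers, 5 (*ATA1*, *DYT1*, *AMS*, *MS2* and *ACOS5*) were at 0 in every library, 3 were tested and 2 were lower DEGs in *flpl1*, with a median log2 fold change of -3.67. Their summed level was 3.81 to 5.58 FPKM in *flpl1* and 12.2 to 26.8 FPKM in Col-0. Of this sum, *LAP6* made up 3.73, 3.16 and 3.5 FPKM in *flpl1* and 3.4, 4.13 and 3.68 FPKM in Col-0. *LAP6* was tested and had no call (log2 fold change 0.04, SE 0.18, adjusted p = 0.856 in edgeR). *PGA4*, a pollen polygalacturonase, had 3, 9 and 42 counts in *flpl1*, compared with 295, 488 and 134 in Col-0 (log2 fold change -3.86, SE 0.76, adjusted p = 0.00361 in edgeR), and *VGD1*, a pollen pectin methylesterase, had 0, 21 and 46 against 322, 514 and 167 (-3.67, SE 0.85, adjusted p = 0.00708). These late pollen genes were highest in Col-0 replicate 2, as was *SEP3*, whereas *PI* was highest in Col-0 replicate 1. *SEP1* was lowest in Col-0 replicate 2, with 15 counts against 29 and 23 in Col-0 replicates 1 and 3. *A9* and *LAP5*, also on this list, each had 4 counts in Col-0 replicate 3 and no count elsewhere. The part of the pollen genes in the levels of *PI*, *SEP1* and *SEP3* was not tested.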

How the data were processed

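Total RNA of leaves was sequenced as paired-end libraries, and per the labels groups and replicate numbers were those of the sample titles (*flpl1*, 3; Col-0, 3). The submitters' processing notes name cutadapt 1.9.1 for trimming, HISAT2, HTSeq 0.6.1 and the TAIR10 build. The annotation release and the strand setting are not given in the sources used here. The deposited counts are whole numbers of reads per gene without normalization. The deposited FPKM values are those counts divided by exonic length and by the library's total, and 100% were within 0.01 of the value recomputed from the counts. Other deposited columns give positions and annotations, and no column of another sample was used (0 such columns).

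The counts were scaled by TMM, filtered with filterByExpr and tested with edgeR 4.0.16 (quasi-likelihood test, R 4.3.3) on all 6 libraries, with Benjamini-Hochberg adjustment over the 18638 genes tested. The SE given with an edgeR log2 fold change was derived from the test. It is the absolute log2 fold change divided by the square root of the quasi-likelihood F. Single values were compared by a two-sided exact permutation test over libraries (Python 3.11.15, scipy 1.17.1). Against a group without counts, a fold was computed with that group at 3 counts in all. Near-identical copies were searched with BLAST 2.17.0. Sequences and gene starts were read from RefSeq on TAIR10.1, where all 9 genes were found. Depth was 19465078 to 24633070 counts per library, which limits genes with few counts, and 3 plants per group limit the rest. The intervals cover counting error only.

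All 9 genes were named. From each other list, up to 3 higher and 3 lower DEGs with the largest change and a mean of at least 0.5 FPKM in the higher group were named, along with markers read as controls. A few further genes, named for their role, were chosen after their values were seen and are given as values. The 9 genes, the other lists and the tests were chosen with earlier results of these data known. The alternatives were DESeq2 1.42.0, limma 3.58.1 on log2(FPKM + 1) and log2(FPKM + 0.1), other scalings and filters, a replicate block, and each library left out in turn. The fits were checked on simulated data. Sequencing of the genome, flow cytometry and qPCR were not analysed here.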

Additional observations from a re-analysis of the deposited data

How the results depend on the processing

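The 7 tested genes of the group kept their direction under every alternative run (93 values), and 90 of these kept the call. The 3 that did not were *AG* (0.73), *SEP1* (-0.60) and *AGL15* (0.99), all with limma on log2(FPKM + 1), a scale that compresses levels near 1 FPKM, so that 0 members were higher DEGs there. With genes limited to a mean of at least 5 FPKM, 0 members were higher and 0 lower DEGs, since of the 9 only *SEP4* and *AGL18* are that abundant, and over all genes 2158 were higher and 1587 lower. Without the low-count filter 2 members were higher and 4 lower DEGs, the added one being *AGL6*. Leaving out 1 library gave 2 to 2 higher and 3 to 3 lower members, and 3498 to 4092 higher and 2506 to 2922 lower DEGs.

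With the libraries centred on nuclear genes outside Chr. 2, log2 fold changes over all tested genes had a median of 0.10 and higher DEGs made up 63.6% of the calls, against 58.0% in the reported fit and 49.1% with limma on log2(FPKM + 1). With the replicate number as a block, 2 members were higher and 3 lower, with 3656 higher and 2623 lower DEGs in all. The deviations of same-numbered libraries correlated at 0.03, -0.12 and 0.10, and those of different-numbered libraries between -0.14 and 0.14. The same-numbered libraries thus did not stand out. With so few libraries these values cannot decide whether same-numbered plants were handled together, and the labels name no pairing. Depth limits *SEP2*, *AGL6*, *PI*, *SEP1* and *SEP3*, whose *flpl1* libraries held 0 to 5 counts each.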
